A study of Mus musculus with 45 samples.

Results

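Mgp encodes matrix Gla protein, a small secreted protein of the extracellular matrix. The gene was chosen from measured values, because its level fell with passage in every line while that of other fibroblast genes was said to rise. It is 1 of 12716 genes named in the data, and 1 probe set was paired with it in each of the 2 deposited tables.

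The samples were 45 arrays of mouse induced pluripotent stem cell clones, made with a secondary reprogramming system, in which somatic cells of a mouse already carry the reprogramming factors. They formed 15 groups of 3 clones. Clones of mouse 1 came from skeletal muscle precursors (SMP), sampled at passage 6, and from granulocytes (Gra), sampled at passages 4 and 16. Those of mouse 2 came from tail tip fibroblasts (TTF), splenic B cells, T cells and bone marrow granulocytes, each at passages 4, 10 and 16. All cultures shared a medium with serum and LIF and a feeder layer of irradiated mouse embryonic fibroblasts (MEFs). Before RNA extraction the cells were trypsinized and preplated to remove the feeders. Strain, sex, age and the alleles of the reprogramming system are not given in the sources used here. Clones of a group came from 1 mouse, so the p-values measure how clones differ, and the spread among animals is not in them.

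Values are log2 signals. Passages 4, 6 and 16 stood together in a table of 33 arrays and passage 10 in a table of 12 arrays. The tables are of different array platforms and were normalized separately, so levels were compared only within a table. Correlations of an array with the others of its group ran from 0.922 to 0.996 in the first table and from 0.997 to 0.998 at passage 10. The lowest was granulocyte clone 3 of mouse 2 at passage 16. The defining genes of pluripotent cells were abundant in all groups of the first table, with means of 10.99 to 11.54 for Pou5f1, 11.15 to 12.24 for Nanog and 10.88 to 11.35 for Sox2.

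Matrix Gla protein carries glutamate residues that a carboxylase modifies with vitamin K as its cofactor, which lets them bind calcium. It is known as an inhibitor of calcification of arteries and cartilage, and it binds bone morphogenetic proteins (BMPs). Fibroblasts, chondrocytes and vascular smooth muscle cells are the usual sources, and it is no marker of pluripotent cells. In bulk RNA, fewer cells of a type and less RNA per cell cannot be told apart.

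Mgp was far lower at passage 16 than at passage 4 in all 5 groups of lines, and the clone values of the passages did not overlap in any of them. T cell lines fell the most, from the highest level of the origins at passage 4 to the lowest at passage 16. These passage values are those that chose the gene, so they are given as a description without a test.

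**Figure D1:**
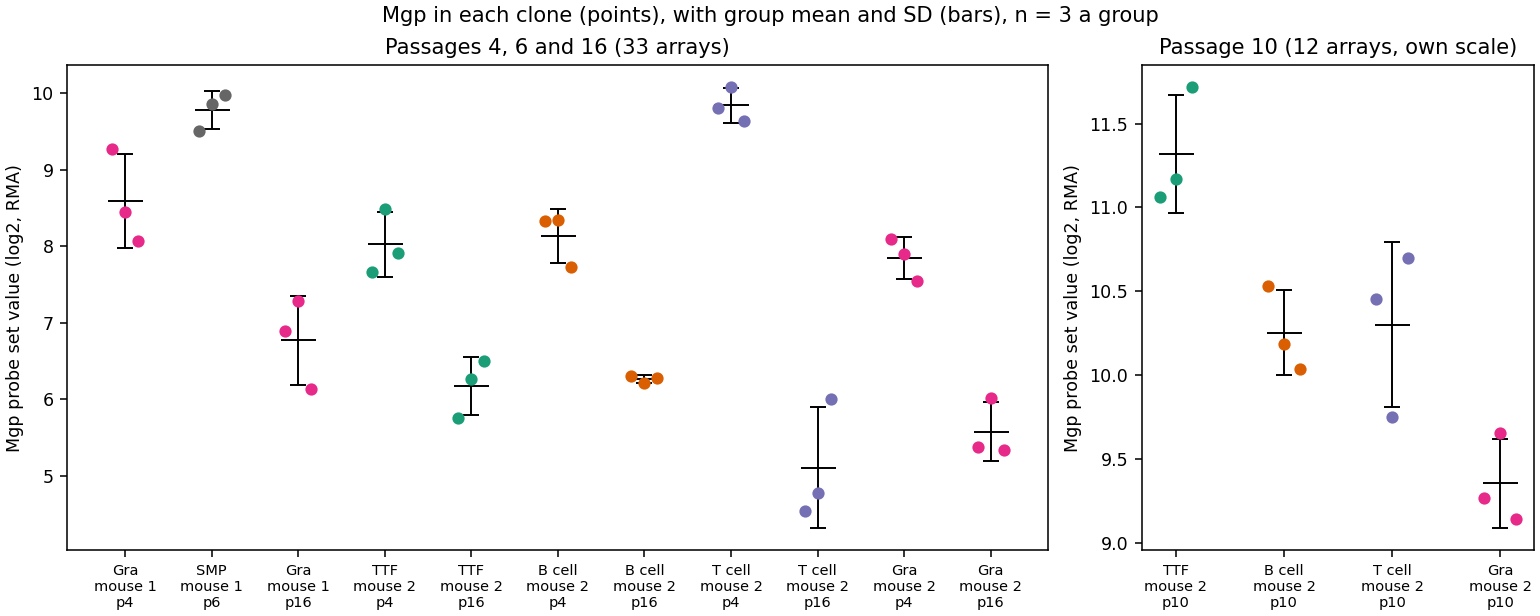
Mgp probe set value (log2) in each clone, with the group mean and SD (n = 3), in the table of passages 4, 6 and 16 and in the separately scaled table of passage 10. At passage 4 all values lie at 7.55 or above and at passage 16 all lie at 7.28 or below.

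In T cell lines Mgp read 9.80, 10.08 and 9.63 at passage 4 (clones 1 to 3) and 4.54, 4.77 and 6.01 at passage 16. Clone 3 at passage 16 stood above the other clones of that group and still lay 3.62 log2 units below the lowest passage 4 clone. The mean fell by 4.73, a 26.5-fold lower signal.

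In TTF lines the values were 7.67, 8.49 and 7.92 at passage 4 and 5.76, 6.27 and 6.50 at passage 16. In B cell lines they were 8.33, 8.35 and 7.72 and then 6.31, 6.22 and 6.28, which made passage 16 B cell lines the group with the smallest spread (SD 0.05, n = 3). The means of these origins fell by 1.85 and 1.86, or 3.60-fold and 3.64-fold.

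Granulocyte lines fell in both mice. In mouse 2 they read 8.10, 7.89 and 7.55 at passage 4 and 5.38, 6.02 and 5.34 at passage 16, a mean change of -2.27 (4.81-fold lower). In mouse 1 they read 9.27, 8.44 and 8.07 and then 6.90, 7.28 and 6.14, a mean change of -1.82 (3.53-fold lower). The gap between the lowest passage 4 clone and the highest passage 16 clone was smallest in mouse 1, at 0.78, against 1.17 in TTF, 1.41 in B cell and 1.53 in granulocyte lines of mouse 2.

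Where clone numbers are taken as names of lines, the 15 single changes ran from -5.30 in T cell clone 2 to -1.16 in granulocyte clone 2 of mouse 1. T cell clones 1, 2 and 3 changed by -5.26, -5.30 and -3.62. The other 12 lay between -2.72 and -1.16, so no line of another origin reached the smallest fall of a T cell line.

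Over the 4 origins of mouse 2 the mean change was -2.68, and it ranked 1 among 11807 genes from the largest fall. Its rank was 1 in T cell lines, 5 in granulocyte lines of mouse 1, 6 in B cell lines, 23 in granulocyte lines of mouse 2 and 47 in TTF lines. Lower values at passage 16 in all 15 lines were found for 63 genes, 0.534% of those measured, and falls without overlap in all 5 groups of lines for 20 genes (0.169%). A rise without overlap in all 5 groups was seen for 23 genes (0.195%). The largest mean changes among the other 19 falling genes were those of Gm9828 (-1.61), the imprinted zinc finger gene Plagl1 (-1.49) and Rbbp6 (-1.41), followed by the receptor gene Tnfrsf19 (-1.17), Shisa2 (-1.16) and the vesicle fusion gene Vamp2 (-1.06). These genes were listed after their values were seen.

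In 1 group of lines alone, such a fall without overlap was common: 18.7% of genes in T cell lines, 16.6% and 10.1% in granulocyte lines of mice 2 and 1, 14.1% in TTF lines and 13.3% in B cell lines.

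The rule that chose Mgp says that other fibroblast genes rise as it falls. That held in 12 of 15 lines when measured as the mean of a list of 30 measured fibroblast genes without Mgp, and it did not hold in T cell lines. The list mean was higher at passage 16 by 0.62 in TTF, 0.78 in B cell, 0.39 in granulocyte lines of mouse 2 and 0.68 in those of mouse 1. In T cell lines the difference was -0.42, with -0.34, -0.66 and -0.26 in clones 1 to 3. The feeders are fibroblasts as well, and the part of feeder RNA in the levels of Mgp was not tested.

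**Figure D2:**
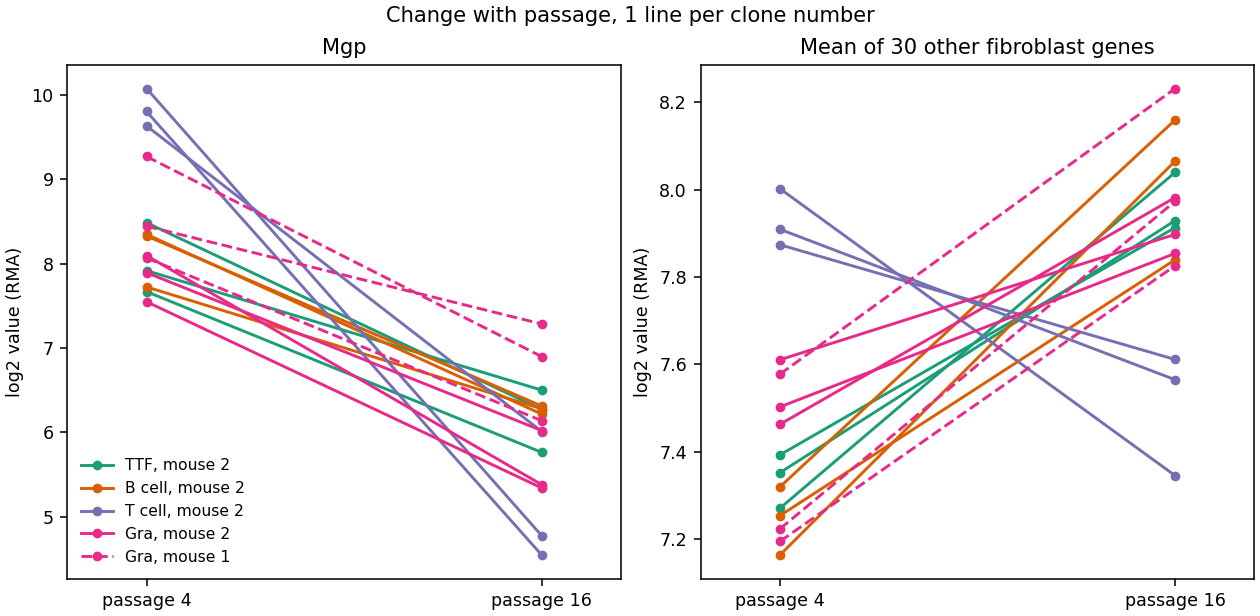
Mgp (left) and the mean of 30 other fibroblast genes (right) at passages 4 and 16, log2 values, with 1 line joining the cultures of the same clone number. Mgp falls in 15 of 15 lines, while the fibroblast mean rises in 12 and falls in the 3 T cell lines.

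Single fibroblast genes moved in different ways between passages 4 and 16. With the moderated test of limma and an adjusted p under 0.05 as the call, 15 of the 30 genes were called higher and 3 lower in the mean of the 4 origins, where 16.6% and 12.4% of all genes were. Their median change was 0.31, against 0.07 over all genes. By origin, the list had 13 higher and 3 lower in TTF lines (5.76% and 6.43% of all genes), 12 and 0 in B cell lines (5.51% and 2.49%), 0 and 9 in T cell lines (7.49% and 10.4%), 10 and 2 in granulocyte lines of mouse 2 (22% and 14%) and 7 and 0 in those of mouse 1 (0.855% and 0.288%). This contrast chose Mgp with these genes in view, so the counts are a description and support nothing.

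The genes of collagen VI and S100a4 moved furthest upward. Col6a3, an alpha chain of that collagen, changed by 1.58 in the mean of origins and by 2.37 in mouse 1. S100a4, a calcium-binding protein gene used as a fibroblast marker, changed by 1.54 and 3.18 and was higher at passage 16 in 15 of 15 lines. Col1a1, the alpha 1 chain of collagen I, was 8.31 in TTF, 8.15 in B cell, 8.74 in granulocyte and 9.58 in T cell lines of mouse 2 at passage 4. At passage 16 it was 9.75, 9.55, 9.35 and 8.54. The order of T cell lines among the origins was thus turned round, from highest to lowest, as it was for Mgp.

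Col3a1, which encodes collagen III, was at 1.60 in TTF, 1.01 in B cell and -1.71 in T cell lines, all called, and at 0.41, not called, in granulocyte lines of mouse 2. Fn1 (fibronectin), Sparc (a collagen-binding matrix protein gene) and Thy1 (a surface marker of fibroblasts) were at -0.17, 0.01 and 0.30 in the mean of origins and were not called. The genes of the list closest to Mgp in direction were Lox, which encodes a collagen cross-linking enzyme, at -1.12, the matricellular genes Ccn1 and Ccn2 at -0.52 and -0.39, and the gelatinase gene Mmp2 at -0.37, the last not called. Lox fell in T cell and granulocyte lines of mouse 2 (-2.02 and -2.28) and was not called in TTF (1.12) and B cell lines (-1.32). The list gene lower in the largest number of lines was Mmp2, in 12 of 15. Col1a2 had no value in the 33-array table.

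**Figure D3:**
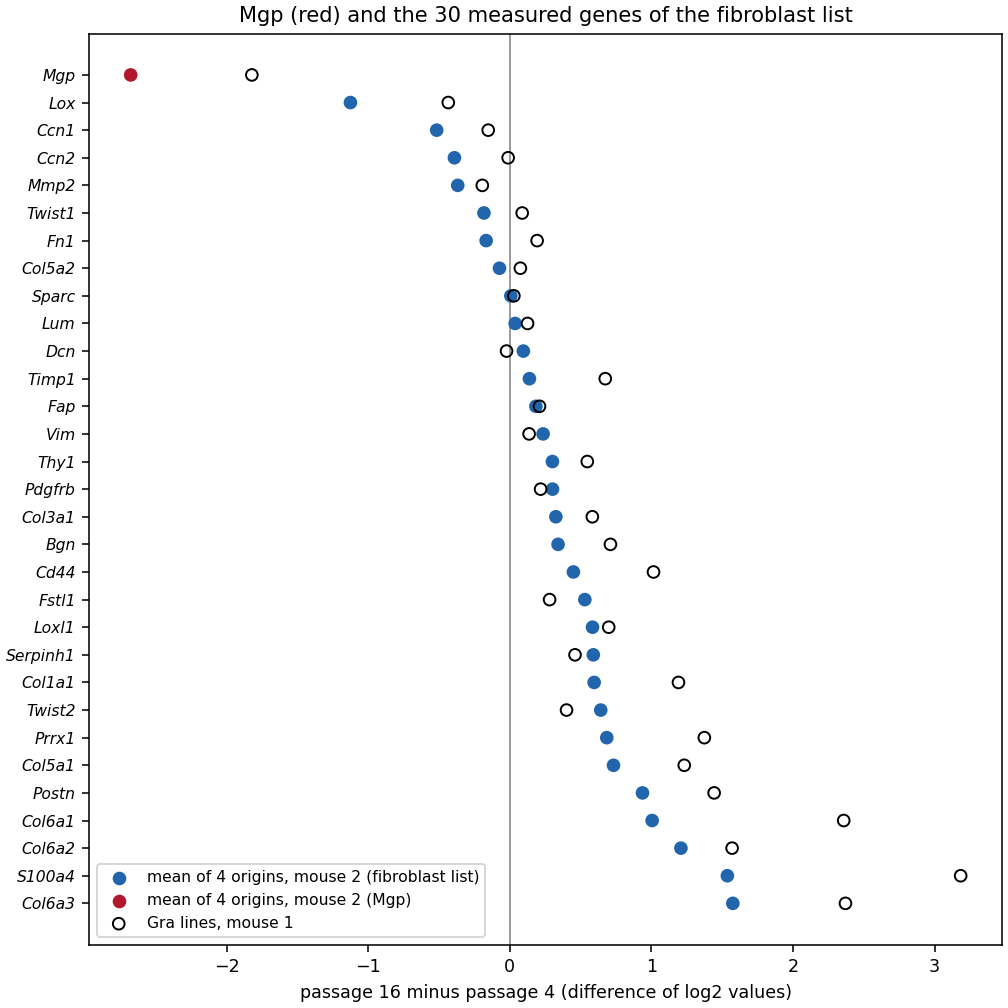
Passage 16 minus passage 4 (difference of log2 values) for Mgp and the 30 measured genes of the fibroblast list, as the mean of the 4 origins of mouse 2 (filled) and in granulocyte lines of mouse 1 (open). Mgp lies at -2.68 and -1.82, while the list runs from -1.12 for Lox to 1.58 for Col6a3 in the mean of origins.

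The comparison of origins within a passage asks whether the cell from which a line was made still shows in its expression. For Mgp these contrasts were not themselves used in choosing the gene, and 36 of its values were tested with limma, each adjusted over all genes. Clones of passage 4 and of the latest passage did help to choose Mgp, through its fall between them. The p-values that rest on those clones are therefore not free of that choice. At passage 4, Mgp was highest in T cell lines (9.84 ± 0.22, SD, n = 3), followed by B cell (8.13 ± 0.35), TTF (8.02 ± 0.42) and granulocyte lines (7.85 ± 0.28). All 3 T cell clones lay above the 9 others, which was true of 6.5% of genes. The means of the origins spanned 1.99 (3.98-fold) and differed in the F-test (adjusted p = 7.99e-05), as did 39% of genes.

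T cell lines were higher than the other origins by 1.84 ± 0.27 (SE, adjusted p = 2.38e-05), where 12.3% of genes were called higher and 6.42% lower, and Mgp ranked 34 by the size of that difference. Granulocyte lines were lower by -0.82 ± 0.27 (adjusted p = 0.0297), as were 14.8% of genes, while 8.33% were higher. That call ended without granulocyte clone 3 (-0.67, adjusted p = 0.165), without granulocyte clone 2 (0.0873) and without TTF clone 2 (0.0502). TTF lines stood at -0.58 ± 0.27 (adjusted p = 0.141) and B cell lines at -0.44 ± 0.27 (0.364) against the rest. Lines made from fibroblasts, a cell type that makes Mgp, were not called higher at passage 4, and their value lay below the mean of the others.

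Of the 6 pairs of origins at passage 4, 3 were called, each with T cell lines on the higher side. T cell minus granulocyte lines was 1.99 ± 0.33 (SE, adjusted p = 5.9e-05; 16.7% of genes higher in T cell lines). TTF minus T cell lines was -1.81 ± 0.33 (adjusted p = 0.000613; 6.91% lower) and B cell minus T cell lines -1.70 ± 0.33 (adjusted p = 0.000869; 10.4% lower). With the mean of the fibroblast list as a covariate the latter differences were -0.89 and -0.63 and no longer called (adjusted p = 0.396 and 0.839), while that from granulocyte lines stayed called. Among TTF, B cell and granulocyte lines, which are neighbours in the order, the differences were -0.11 to 0.29 and adjusted p ran from 0.738 to 0.859.

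Passage 10, on its own scale and array platform, gave another order. Passage and platform differ together here and cannot be told apart. TTF lines read 11.06, 11.17 and 11.72, T cell lines 10.46, 9.75 and 10.70, B cell lines 10.53, 10.19 and 10.04, and granulocyte lines 9.27, 9.66 and 9.15. The 3 TTF clones lay above all others, as in 2.09% of genes, and the 3 granulocyte clones below all others, as in 11.9%. The means were 11.32 ± 0.35, 10.30 ± 0.49, 10.25 ± 0.25 and 9.36 ± 0.27 (SD, n = 3) for TTF, T cell, B cell and granulocyte lines.

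TTF lines were higher than the rest by 1.35 ± 0.19 (SE, adjusted p = 0.00286; 5.3% of genes higher and 8.46% lower), and granulocyte lines were lower by -1.27 ± 0.19 (adjusted p = 0.000321; 17.2% of genes lower and 21.1% higher). T cell lines, which had been highest at passage 4, stood at -0.01 ± 0.19 (adjusted p = 0.992). The span of the means was 1.96, or 3.89-fold (F-test, adjusted p = 0.000744; 32.2% of genes called).

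Granulocyte lines differed from each of the other origins at passage 10. TTF lines exceeded them by 1.96 ± 0.24 (SE, adjusted p = 0.00011; 15.6% of genes higher). T cell lines exceeded them by 0.95 ± 0.24 (adjusted p = 0.0110; 13% higher) and B cell lines by 0.90 ± 0.24 (adjusted p = 0.0144; 12.1% higher). Without granulocyte clone 3 the differences for T cell and B cell lines were 0.84 and 0.79 and no longer called (adjusted p = 0.0520 and 0.0632). The same held without T cell clone 3 for T cell lines (0.0508) and without B cell clone 1 for B cell lines (0.0667). TTF lines lay 1.06 above B cell and 1.01 above T cell lines, with adjusted p = 0.119 and 0.109. In those contrasts 6 and 11 genes were called in all, which is 0.0484% and 0.0888%.

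At passage 16 the order among the means was B cell (6.27 ± 0.05), TTF (6.18 ± 0.38), granulocyte (5.58 ± 0.38) and T cell lines (5.11 ± 0.79; SD, n = 3). The span was 1.16, or 2.24-fold (F-test, adjusted p = 0.110; 1.52% of genes called). It was called without T cell clone 3 (1.61, adjusted p = 0.0290) and without granulocyte clone 2 (0.0326). T cell lines were at -0.90 ± 0.27 against the rest (adjusted p = 0.0729). Without T cell clone 3, which read 6.01, that difference was -1.35 (adjusted p = 0.0142), and without granulocyte clone 3 it was -0.94 (0.0352). No pair of origins was called in limma at passage 16, and 3 of 6 had an unadjusted p under 0.05. The pair of TTF and T cell lines, at 1.07 (adjusted p = 0.125), was called without T cell clone 3 (1.52, adjusted p = 0.0321).

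In mouse 1, SMP lines at passage 6 read 9.50, 9.86 and 9.97, above every granulocyte clone of that mouse. The difference from granulocyte lines at passage 4 was 1.18 ± 0.33 (SE, adjusted p = 0.0110), where 11.6% of genes were called higher, 10.1% lower, and 30.1% lay higher with no overlap. The call was lost without SMP clone 3 (1.09, adjusted p = 0.0555) and without clone 3 of the granulocyte lines (0.92, adjusted p = 0.0768). The mean of granulocyte lines at passage 16 lay 3.00 below that of SMP lines. That value rests on passage 16 clones that helped to choose the gene, so it is given without a test, beside 6.25% of genes called higher, 7.86% called lower and 23.9% higher without overlap. The passage 4 granulocyte clones also helped to choose Mgp, so the p-values above are not free of that choice. Origin and passage differ together in these comparisons and cannot be told apart.

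Granulocyte lines allow a comparison of the mice. At passage 4 mouse 2 was at -0.75 ± 0.33 against mouse 1 (adjusted p = 0.201). At passage 16 the 3 clones of mouse 2 lay below the 3 of mouse 1, as in 11.3% of genes, and the difference was -1.19 ± 0.33 (adjusted p = 0.0284; 6.67% of genes called lower). The call was lost without clone 3 of mouse 2 (-1.07, adjusted p = 0.272), without clone 1 of mouse 1 (0.101) and without clone 2 of mouse 1 (0.127), and with only the compared groups in the fit adjusted p was 0.423.

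Where T cell and SMP lines at early passage and TTF lines at passage 10 were high in Mgp, other fibroblast genes were high as well. Their part in the level of Mgp was not tested. In T cell lines at passage 4, 13 of 30 list genes were higher and 0 lower than in the other origins (12.3% and 6.42% of all genes), with a median difference of 0.55 against 0.03 over all genes. Col6a1 was at 1.72 ± 0.24 (adjusted p = 1.01e-05), Col3a1 at 1.56 ± 0.25 (4.86e-05), Col1a1 at 1.18 ± 0.22 (0.000423) and Col5a1 at 1.17 ± 0.22 (0.00038). The list mean was 7.93 in T cell lines and 7.25 to 7.53 in the other origins of mouse 2. In SMP lines, with a list mean of 8.01, 13 of 30 genes were higher and 0 lower than in granulocyte lines at passage 4 (11.6% and 10.1% of all genes). Col6a1 and S100a4 led there at 2.21 ± 0.29 and 2.00 ± 0.28. Granulocyte lines of mouse 2 at passage 4, whose Mgp was lower, had 5 list genes higher and 7 lower (8.33% and 14.8% of all genes), with Cd44 at 1.19 and Mmp2 at -1.89. SMP lines, whose Mgp was 3.00 above that of passage 16 granulocyte lines, had 2 list genes higher and 4 lower in that comparison (6.25% and 7.86% of all genes), with Twist1 at 1.06 and S100a4 at -1.18. Between the mice at passage 16, 2 of 30 list genes (Lox and Cd44) were lower in mouse 2, near the 6.67% of all genes, and Col6a2 was called higher.

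TTF lines at passage 10 had 25 of 34 fibroblast genes higher and 0 lower than the other origins (5.3% and 8.46% of all genes), with a median of 0.53 against -0.01 over all genes. S100a4 (1.53 ± 0.24), the hyaluronan receptor gene Cd44 (1.52 ± 0.23), Col5a2 (1.39 ± 0.21) and Col1a2 (1.24 ± 0.15) were the largest. Granulocyte lines had 23 of 34 lower and 2 higher (17.2% and 21.1% of all genes), the latter being Ccn1 and Mmp2. In T cell lines at passage 16, 8 of 30 list genes were lower and 0 higher, against 1.88% of all genes lower and 0.982% higher, and 10 were lower without granulocyte clone 3 of passage 16. Their Twist1, a mesenchymal transcription factor gene, was at -1.08 ± 0.16 (adjusted p = 0.000423).

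The tested differences of Mgp were recomputed with the mean of the fibroblast list as a covariate. The value of T cell lines at passage 4 was then 0.96 ± 0.43 (SE, adjusted p = 0.281) and that of SMP over passage 4 granulocyte lines 0.11 ± 0.53 (0.977). At passage 10 TTF lines were at -0.15 ± 0.40 (0.991) and granulocyte lines at 0.18 ± 0.39 (0.915), with an SE of 0.19 before. The passage 10 F-test and its pairs with granulocyte lines also lost their calls. Calls that stayed were those of granulocyte lines against the rest and of the F-test at passage 4, and of the mice at passage 16. At passage 10 the order of the origins by Mgp was also their order by the list mean, with means of 9.21 for TTF, 8.79 for T cell, 8.67 for B cell and 8.29 for granulocyte lines. At passage 4 it was not: granulocyte lines, with the lowest Mgp, had a list mean of 7.53, above 7.34 in TTF and 7.25 in B cell lines.

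**Figure D4:**
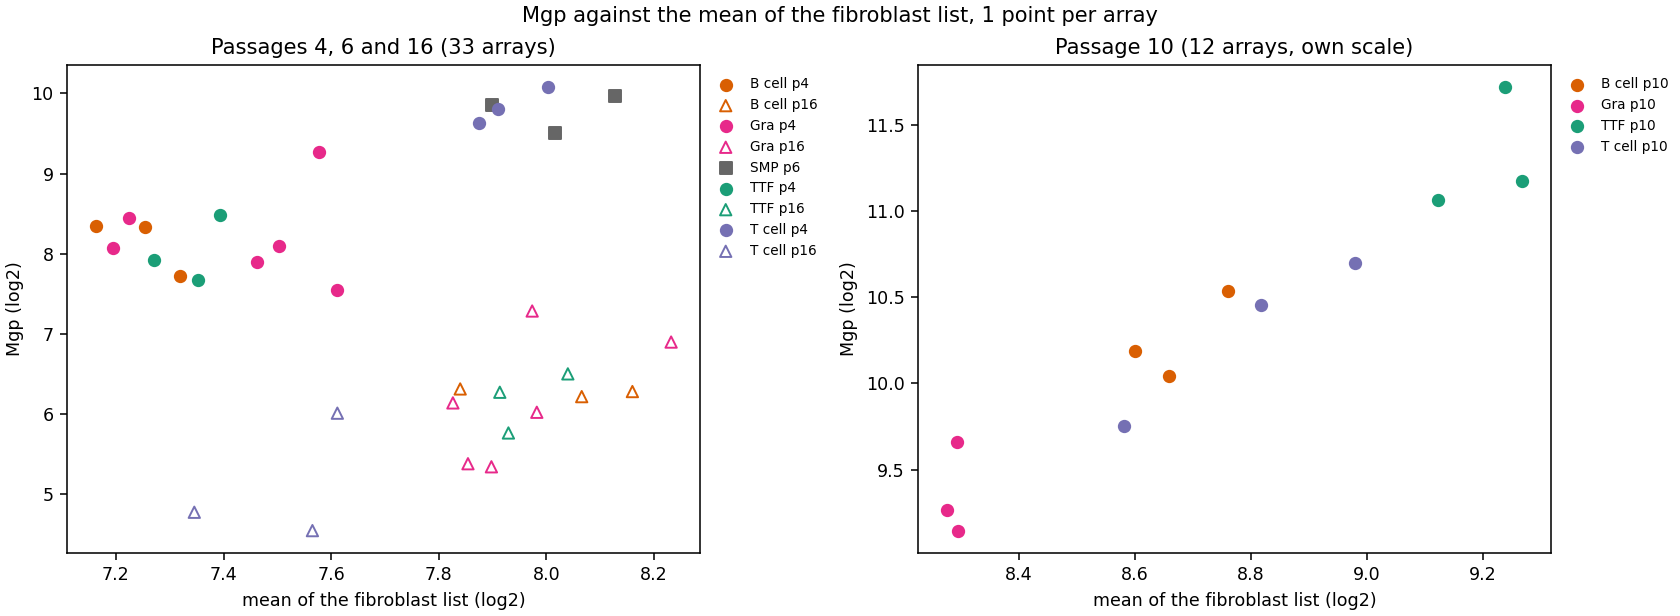
Mgp against the mean of the other fibroblast genes in each array (log2), for passages 4, 6 and 16 (left, granulocyte lines of both mice together) and for passage 10 (right, own scale). At passage 10 the points rise together from granulocyte to TTF lines, while on the left the passage 16 arrays lie below all others, at fibroblast means that overlap those of the earlier passages.

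Correlations across arrays describe the same pattern. They share the origins and, within a table, the normalization, and carry no test. Over the 33 arrays the median Pearson r of Mgp with the 30 fibroblast genes was -0.10, with 14 of 30 positive and a median of -0.11 over all genes. Over the 12 arrays of passage 4 in mouse 2 it was 0.39 and over the 12 of passage 16 it was 0.40, with 26 of 30 positive in each and medians over all genes of 0.06 and -0.01. Over the 12 arrays of passage 10 it was 0.84, with 31 of 34 positive and a median over all genes of 0.03. When the group means were taken off, it was 0.38 at passage 10 and 0.16 over the 33 arrays.

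The genes most like Mgp over the 12 arrays of passage 10 were the lysyl oxidase gene Loxl3 (r = 0.984), Aebp1 (0.980), the microfibril gene Mfap5 (0.978), Col3a1 (0.978) and the phospholipase gene Pla2g4a (0.978). Over the 33 arrays their r with Mgp was -0.13, 0.34, 0.42, 0.23 and 0.14. The genes most like it over the 33 arrays were others: the cyclin gene Ccnl1 (0.877), the proton pump gene Atp6v1f (0.857), Surf1 (0.841), Tollip (0.841), the ceramide synthase gene Cers4 (0.838), Shisa2 (0.829), Cd24a (0.827) and Pign (0.825). At passage 10 the r of these 8 genes ran from -0.83 for Cers4 to 0.22 for Pign. The lowest over the 33 arrays were Agtrap (-0.890), Efl1 (-0.877), Olig1 (-0.861) and Cryzl1 (-0.858).

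The vitamin K cycle supplies the cofactor that matrix Gla protein needs. Of its 5 listed genes, 2 had a value over the 33 arrays. Vkorc1, which encodes the epoxide reductase of the cycle, was higher in T cell lines at passage 4 by 0.88 ± 0.13 (adjusted p = 1.70e-05) and in SMP lines over passage 4 granulocyte lines by 0.86 ± 0.16 (0.000241). Nqo1, a quinone reductase gene, was lower in both, by -1.62 ± 0.24 (2.92e-05) and -0.97 ± 0.30 (0.0194). From passage 4 to 16 Vkorc1 changed by -0.86 ± 0.16 in T cell lines and by 0.63 ± 0.16 in granulocyte lines of mouse 2. At passage 10, 0 of 3 genes were called in TTF lines in limma, and 1 had an unadjusted p under 0.05. Of all genes 5.3% were called higher and 8.46% lower there. Granulocyte lines at that passage had Vkorc1 at 0.17 ± 0.05 (adjusted p = 0.0185) and Nqo1 at -0.50 ± 0.10 (0.00144). The carboxylase gene Ggcx had a value only at passage 10, with group means from 4.56 to 4.77.

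Of 10 measured genes of other proteins with Gla residues, 2 were higher and 0 lower in T cell lines at passage 4, where 12.3% and 6.42% of all genes were: Gas6, the ligand of the TAM receptors, at 0.65 ± 0.15 (adjusted p = 0.00193), and the prothrombin gene F2 at 0.69 ± 0.21 (0.0192). In SMP over passage 4 granulocyte lines 2 were higher and 1 lower (11.6% and 10.1% of all genes), with Gas6 at 1.12 ± 0.18 (5.03e-05). In TTF lines at passage 10, 0 of 9 were called in limma and 1 had an unadjusted p under 0.05. Of all genes 5.3% were called higher and 8.46% lower there. With passage, 1 of 10 was called higher (F9, 0.25) and 0 lower in the mean of origins, where 16.6% and 12.4% of all genes were. In T cell lines Gas6 changed by -0.87 ± 0.18 with passage. The osteocalcin gene Bglap, which encodes the bone relative of matrix Gla protein, was at -0.06 ± 0.11 with passage in the mean of origins.

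BMPs are bound by matrix Gla protein, and single genes of their pathway were called. The shares of all genes called were 12.3% higher and 6.42% lower in T cell lines at passage 4, 21.1% and 17.2% in granulocyte lines at passage 10 and 16.6% and 12.4% with passage. Of 10 ligands, 1 was higher and 1 lower in T cell lines at passage 4, Bmp7 at 1.21 ± 0.21 (adjusted p = 0.000146) and Gdf3, a ligand made by pluripotent cells, at -0.75 ± 0.24 (0.0265). In SMP lines Bmp7 was at 1.65 ± 0.26 (3.86e-05) over passage 4 granulocyte lines. In granulocyte lines at passage 10, where Mgp was lowest, 4 of 10 ligands were lower and 2 higher, with Bmp4 at -0.85 ± 0.09 (3.48e-05) and Bmp7 at 0.60 ± 0.07 (7.90e-05). With passage, 1 ligand of 10 was called in the mean of origins, Bmp8b at 0.22.

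Of the receptors and Smads, which pass the signal on, 1 of 10 was higher in T cell lines at passage 4, the receptor gene Acvr2b at 0.93 ± 0.18 (adjusted p = 0.000398). Secreted and intracellular antagonists had 3 of 12 higher and 0 lower in those lines. They were Grem1 (0.97 ± 0.23, adjusted p = 0.00362), whose product binds BMPs outside the cell, the decoy receptor gene Bambi (0.81 ± 0.26, 0.0293) and the inhibitory Smad gene Smad6 (0.65 ± 0.19, 0.0164). Grem1 was also higher in SMP over passage 4 granulocyte lines (1.21 ± 0.29, 0.00272) and in TTF lines at passage 10 (1.24 ± 0.21, 0.00527). It was lower in granulocyte lines at passage 10 (-0.90 ± 0.21, 0.00450). Fst was called lower there too (-1.27), while Twsg1, whose product binds BMPs together with chordin, Smad6 and Bambi were called higher (0.48, 0.35 and 0.26). In TTF lines at passage 10 Fst was called higher (0.98) and Twsg1 lower (-0.34), where 5.3% and 8.46% of all genes were. With passage, 4 of 12 antagonists were called higher and 2 lower in the mean of origins. Grem1 was at 0.43, Twsg1 at -1.01 ± 0.24, and Smad7 at -0.72 ± 0.18.

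BMP target genes had 2 of 8 higher and 0 lower in T cell lines at passage 4, Gata2 at 2.39 ± 0.26 (adjusted p = 3.07e-07) and Hey1 at 0.96 ± 0.31 (0.0291). Gata2 changed by -2.48 ± 0.31 with passage in the same lines and was 2.60 ± 0.31 (1.32e-06) higher in SMP than in passage 4 granulocyte lines. The Id genes, direct targets of BMP signalling, were not called in T cell lines at passage 4. In granulocyte lines at passage 10, Id3 (-0.59), Msx1 (-0.55), Id1 (-0.44) and Msx2 (-0.37) were called lower, and Id2 (0.64) and Id4 (0.51) higher. Of all genes 17.2% were called lower and 21.1% higher there. With passage 1 of 8 targets was called in the mean of origins, Id2 at -0.51, and 0 without granulocyte clone 3 of mouse 2 at passage 16.

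Genes of mineralisation, cartilage and smooth muscle, the settings in which Mgp is best known, had counts near the share of all genes called in T cell lines at passage 4 (12.3% higher and 6.42% lower). There, 1 of 9 mineralisation genes was higher, the phosphate transporter gene Slc20a1 (0.80 ± 0.13, adjusted p = 8.04e-05), as were 1 of 15 cartilage genes, Col9a2 (0.81 ± 0.17, 0.000935), and 1 of 8 smooth muscle genes, the actin gene Acta2 (1.48 ± 0.30, 0.000890). None of these lists had a lower gene in that comparison. In TTF lines at passage 10 the lists had 1 of 10, 2 of 15 and 3 of 10 higher and 0, 1 and 2 lower (5.3% and 8.46% of all genes), with Acta2 at 0.84 ± 0.12 (0.00280). With passage they had 2 of 9, 1 of 15 and 2 of 8 called higher and 1, 1 and 2 lower in the mean of origins (16.6% and 12.4% of all genes), and Acta2 was at 0.81.

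The measured genes next to Mgp on its chromosome had smaller mean differences with passage. On one side lay Art4, Wbp11 and H2aj, whose passage 16 minus passage 4 means over the origins were 0.36, 0.03 and -0.10. On the other lay Arhgdib, Pde6h and Rerg, at 0.47, 0.44 and -0.36. Arhgdib and Pde6h were higher at passage 16 in each origin of mouse 2. Their means were called higher and that of Rerg lower, where 16.6% and 12.4% of all genes were. The mean of H2aj hides opposite directions. The histone gene H2aj was higher in T cell lines at passage 4 by 1.00 ± 0.22 (adjusted p = 0.00206). With passage it fell in them, by 1.08 ± 0.28 (adjusted p = 0.00669), and rose in granulocyte lines of mouse 2, by 0.93 ± 0.28 (0.0117). Rerg fell in granulocyte lines of mouse 2, by 1.30 ± 0.21 (7.55e-05).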

How the data were processed

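The deposited values are on the log2 scale, 1 per probe set, and the authors computed them with RMA, per the submitters' processing notes. They stand in separately normalized tables of 33 and 12 arrays, each of its own array platform. The RMA version is not given in the sources used here, and no contrast joined the tables. Of 22690 probe sets a table, 18003 and 20393 had 1 gene symbol and were used. Several symbols were given for 287 and 691, and none for 4400 and 1606. Symbols were updated to RefSeq names. Of several probe sets of a gene the one with the highest mean was kept, giving 11807 and 12394 genes, dim ones included.

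The fits used limma 3.58.1 under R 4.3.3 (lmFit, eBayes), separately by table, with 1 mean per group. All p-values are two-sided, Benjamini-Hochberg adjusted over all genes of the table, and called means an adjusted p under 0.05. The script was tested on simulated data. Apart from the array platform the labels give no batch, and the number of arrays limits the precision.

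Mgp and the 13 gene lists were chosen with earlier results of these data known. Named genes were Mgp, the 8 highest and 4 lowest correlations over 33 arrays, the 5 highest at passage 10, up to 4 called list members with the largest differences in a contrast, Col1a1, Col1a2, Col3a1, Fn1, Sparc, Thy1, Pou5f1, Nanog, Sox2 and the 3 nearest measured genes on each side. For granulocyte lines at passage 10 all called genes of the pluripotency, BMP antagonist and BMP target lists were named. Neighbours came from RefSeq's gene order in GRCm38.p6. Alternatives were quantile normalization, cyclic loess, other probe set rules, a filter, only the compared groups, a covariate, a clone block and leaving out each clone. Leaving out granulocyte clone 3 of passage 16 in contrasts it is not part of was added after the data were seen.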

Additional observations from a re-analysis of the deposited data

How the results depend on the processing

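Most alternatives kept the directions and calls of Mgp. The exceptions follow, beside the single clones named with the pairs of origins above. With the mean of the fibroblast list as a covariate the value of B cell lines against the rest at passage 4 was 0.12. T cell lines at passage 4 were at 0.96 and SMP over passage 4 granulocyte lines at 0.11, neither called, and TTF minus T cell and B cell minus T cell at passage 4, at -0.89 and -0.63, lost their calls. At passage 16 TTF minus B cell was 0.0044 and T cell minus granulocyte 0.16. At passage 10 TTF, B cell and granulocyte lines against the rest were at -0.15, 0.14 and 0.18. The pairs TTF minus B cell, TTF minus granulocyte, B cell minus T cell, B cell minus granulocyte and T cell minus granulocyte were at -0.22, -0.25, 0.24, -0.026 and -0.26, and the span was 0.26 (adjusted p = 0.755). The passage changes, whose choice already rested on how the list moved, so that this adjustment supports nothing about them, were -2.83 (TTF), -3.09 (B cell), -4.07 (T cell), -2.87 and -2.89 (granulocyte, mice 2 and 1) and -3.21 (mean of origins). With only the compared groups in the fit TTF lines at passage 4 were called at -0.58 (adjusted p = 0.0434), and the mice at passage 16 were at -1.19 (0.423). Leaving out 1 clone gave -0.94 to -0.67 for granulocyte lines at passage 4, -1.35 to -0.62 for T cell lines at passage 16, 0.88 to 1.61 for the span at passage 16, 0.92 to 1.52 for SMP over passage 4 granulocyte lines and -1.51 to -0.94 for the mice at passage 16. At passage 10 it gave -0.21 to 0.034 for B cell and -0.20 to 0.27 for T cell lines against the rest and -0.32 to 0.15 for B cell minus T cell. The uncalled pairs TTF minus B cell and TTF minus granulocyte gave -0.34 to 0.069 and -0.053 to 0.36 at passage 4, and TTF minus B cell -0.25 to 0.12 at passage 16. Same-numbered clones of passages 4 and 16 had deviations with r from -0.317 to 0.410 over 2000 genes, above 0.1 in 9 of 15. The main tests therefore did not pair samples by number, while the changes and counts by line above take the numbers as given. With the clone number as a replicate block T cell lines at passage 4 stayed at 1.84 (adjusted p = 2.71e-05), and no call of Mgp changed.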

Other observations

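Of 14 measured endoderm genes, 4 were lower, 0 higher and 10 not called in SMP lines against passage 4 granulocyte lines, where 10.1% of all genes were lower and 11.6% higher. The largest were the receptor gene Cubn at -3.75 ± 0.65 (adjusted p = 0.000129), Dab2 at -3.59 ± 0.76 (0.00103), the transthyretin gene Ttr at -2.03 ± 0.35 (0.000142) and the regulator gene Gata4 at -1.77 ± 0.40 (0.00170).

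Of the pluripotency list, 3 of 12 genes were lower and 0 higher in T cell lines at passage 4 (6.42% and 12.3% of all genes), and 2 of 12 were lower in SMP over passage 4 granulocyte lines (10.1%). Dppa2, a gene of pluripotent cells, was at -1.80 ± 0.26 (adjusted p = 1.35e-05) and -2.13 ± 0.31 (2.15e-05) in these comparisons. In granulocyte lines at passage 10, where Mgp was lowest, Dppa2 was also lower, by -1.21 ± 0.13 (4.45e-05). Dppa4 was called lower there too (-0.19), while Tdgf1 (0.40), Dppa3 (0.30), Fgf4 (0.28) and Nanog (0.20) were called higher. Of all genes 17.2% were called lower and 21.1% higher there. In TTF lines at passage 10, where Mgp was highest, Dppa2 was higher by 0.82 ± 0.13 (0.00390). No other gene of the list was called in them (5.3% of all genes higher and 8.46% lower). Markers of the cells of origin had 1 higher and 1 lower of 15 in T cell lines at passage 4 (12.3% and 6.42% of all genes), the T cell kinase gene Zap70 at 0.71 ± 0.21 (0.0153) and the lysozyme gene Lyz2 at -1.02 ± 0.28 (0.00992).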
